A study of Mus musculus with 14 samples.

Results

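The response of activated wild-type CD8 T cells to IFN-beta, a type I interferon, was taken from 7 of the 14 libraries of the series. Their titles place 4 of them with IFN-beta and 3 without it. All came from CD8 T cells of C57BL/6 spleens, sorted while naive. Both groups were cultured for 6 h with anti-CD3 bound to the plate at 1 µg/mL and anti-CD28 in solution at 1 µg/mL, antibodies that stand in for antigen and costimulation. The group with IFN-beta also received recombinant IFN-beta at 20 ng/mL. The comparison therefore shows IFN-beta on top of activation, not on resting cells. The other 7 libraries, from mice that lack the long noncoding RNA Morrbid, entered only 1 alternative fit. The labels do not say whether replicates were separate animals or pools, so p-values measure the spread between these libraries, which may be technical.

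The libraries with IFN-beta and those without it stand in separate tables that the authors normalized separately. Stimulation, table and any difference between the tables in sequencing, counting or annotation cannot be told apart. No value within a table compares the groups, so changes of at least 4-fold are stressed. Large changes have the same limit: Colec12, at 138 CPM without IFN-beta, was not listed with it. Whole reads were recovered and all 7 libraries scaled together, over 12539 genes listed in both tables. Levels are CPM, reads per 1000000 after this scaling. The libraries with IFN-beta held 5788070 to 6918633 reads and those without it 2360619 to 2963149. Mitochondrial 16S ribosomal RNA (Rnr2) took 9.45% to 12% of reads with IFN-beta and 12.5% to 18.1% without it. Scaling without the mitochondrial genes gave 389 genes at least 4-fold higher and 128 at least 4-fold lower, against 390 and 120. Of 14 CD8 T cell genes, 14 were measured, with summed levels of 2369 to 2606 CPM with IFN-beta and 2130 to 2456 CPM without it. Singly, 5 were higher, such as Cd8b1, and 7 lower, such as Lat and Trac, and with equal totals 2 were higher and 9 lower. Among all tested genes 29.0% were higher and 25.0% lower with IFN-beta. None of 19 myeloid genes reached the test: 15 were not listed in both tables and 4 were too low. The summed level of those 4 was 2.65 to 3.62 CPM with IFN-beta and 3.82 to 6.33 CPM without it. Of 15 B cell genes, 8 were not in both tables and 5 were too low. The 2 tested did not pass: Ighm, the IgM heavy chain, stood at 82.0 to 94.2 and 87.1 to 117 CPM. Of 12 genes of NK and innate-like cells, 6 were not in both tables and 3 were too low. The other 3 were tested and all passed. Eomes was higher, with a mean of 228 CPM with IFN-beta against 17.6 CPM without it. Cd160 (2.63 against 32.6 CPM) and Klrd1 (118 against 193 CPM) were lower. Over the genes in both tables, the list summed to 327 to 372 CPM with IFN-beta and 234 to 250 CPM without it. This sum rose through Eomes and not through the other tested genes. The part of such other cells in the results was not tested. In bulk RNA, fewer cells of a type and less RNA per cell cannot be told apart.

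Type I interferons bind a receptor of 2 chains, IFNAR1 and IFNAR2, whose kinases TYK2 and JAK1 phosphorylate STAT proteins. STAT2 and IRF9 belong to the factor ISGF3, which binds the interferon-stimulated response element (ISRE) upstream of antiviral genes, while STAT dimers bind the gamma-activated site (GAS). USP18 and SOCS1, both induced by the pathway, dampen it, and in CD8 T cells type I interferon is known as a signal that accompanies antigen and costimulation.

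ISRE letters were commonest in the promoter windows of the genes that were highest with IFN-beta. The letters searched were GAAANNGAAA and, on the other strand, TTTCNNTTTC for the ISRE, and TTCNNNGAA, which is its own reverse complement, for the GAS. The windows ran from 250 bases before to 50 after each RefSeq start, and the searches were separate, so a base could count in both. ISRE letters were found in 3.99% of 27025 genes with a window and in 4.07% of the 7420 tested genes with one. They were found in 24 of 44 genes at least 32-fold higher (54.5%, 95% Wilson interval 40.1 to 68.3) and in 29 of 103 with a log2 difference of 3 to 5 (28.2%, 20.4 to 37.5). Among 6161 genes with differences between -1 and 1 the share was 3.05% (2.65 to 3.51), and among 85 genes at least 4-fold lower it was 2.35% (0.648 to 8.18). The GAS share ran from 18.2% (9.51 to 32.0) in the group at least 32-fold higher to 9.41% (4.85 to 17.5) in the group at least 4-fold lower, with 8.21% (7.55 to 8.92) between -1 and 1 and 8.46% over all tested genes. These intervals count genes only, and neighbouring family members share promoter sequence, so the genes are not independent.

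**Figure D1:**
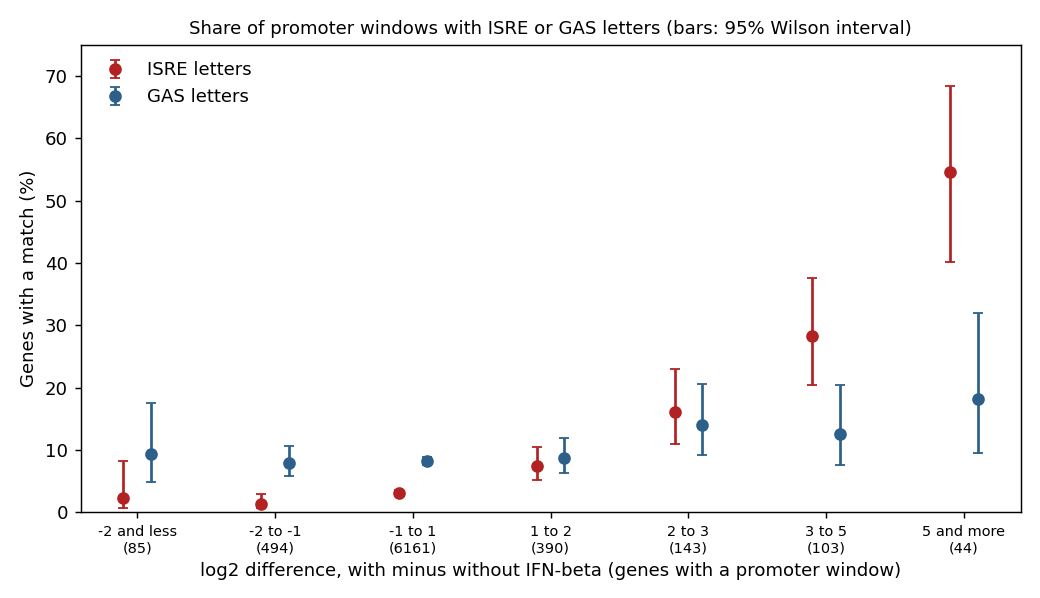
Share of genes (%, vertical axis) whose promoter window held ISRE letters (red) or GAS letters (blue), by log2 difference with minus without IFN-beta (horizontal axis, number of genes in brackets), with 95% Wilson intervals. The ISRE share is 54.5% in the rightmost group and 3.05% in the group around 0, and the GAS share is 18.2% and 8.21% in the same groups, with neighbouring GAS intervals overlapping.

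The stretches that hold these letters are shown for 6 genes described below, because the results turn on these antiviral effectors, a chemokine and members of the pathway. Each runs 5′ to 3′ along the gene's strand, from RefSeq promoters of GRCm38.p6, with ISRE letters in capitals and 15 further bases on each side.
Ifit1 (chr19:34640770-34640828, plus strand): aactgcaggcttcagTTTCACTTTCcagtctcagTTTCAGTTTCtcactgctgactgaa
Ifit3 (chr19:34583358-34583431, plus strand): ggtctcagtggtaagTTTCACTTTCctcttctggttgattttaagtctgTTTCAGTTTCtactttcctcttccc
Rsad2 (chr12:26456548-26456587, minus strand): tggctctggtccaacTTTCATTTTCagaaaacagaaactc
Cxcl10 (chr5:92349078-92349117, minus strand): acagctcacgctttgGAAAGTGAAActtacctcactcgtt
Stat2 (chr10:128270261-128270300, plus strand): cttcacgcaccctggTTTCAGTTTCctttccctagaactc
Socs1 (chr16:10785589-10785634, minus strand): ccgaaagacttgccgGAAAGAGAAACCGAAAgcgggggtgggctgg
Both Ifit genes hold 2 matches, and in Socs1 the 2 matches overlap. The first match begins 104 bases before the start of Ifit1, 156 before Ifit3, 120 before Rsad2, 213 before Cxcl10, 222 before Stat2 and 83 before Socs1. The neighbour Ifit3b (chr19:34607754-34607827, plus strand) holds the same 74 bases as Ifit3. For Ifit3 and Ifit3b the start used lies downstream of the gene's first listed base, so these stretches lie inside the gene's span. Of the 15 named genes highest with IFN-beta, 10 had a window and 6 of these held ISRE letters; of the 15 lowest, 10 had a window and 0 held them. The windows of Ifnar1, Ifnar2, Jak1, Tyk2, Irf9 and Irf7 held no ISRE letters. A match is a description of letters and not a binding site, and no match says only that the letters are not in this window.

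Most of the tested genes differed between the groups, so the size of a difference separates genes better than its p-value. Of 9378 genes tested, 5068 passed (54.0%), 2723 of them higher (29.0%) and 2345 lower (25.0%) with IFN-beta, and the groups did not overlap for 5038 (53.7%). The shares of 29.0% and 25.0% are the background for each count of list members below. The median size of the differences that passed was 0.73 on the log2 scale. At least 4-fold, 390 genes were higher (4.16%) and 120 lower (1.28%), although 65 were lower by that much with a pseudocount of 2 CPM and 63 among genes with a mean of at least 10 CPM. At least 32-fold, 66 were higher, of which 47 belong to the interferon lists, and 2 were lower, the noncoding A130077B15Rik and 6820431F20Rik, named after their values were seen. The 390 genes took 20.8% to 21.4% of the reads with IFN-beta and 2.08% to 2.34% without it. The balance of higher and lower depended on the scaling: higher genes were 53.7% of those that passed, but 16% when library totals were set equal and 40.9% after quantile normalization. Equal totals shifted the median of all genes from 0.02 to -0.50, and 280 genes at least 4-fold higher and 285 at least 4-fold lower were then counted.

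**Figure D2:**
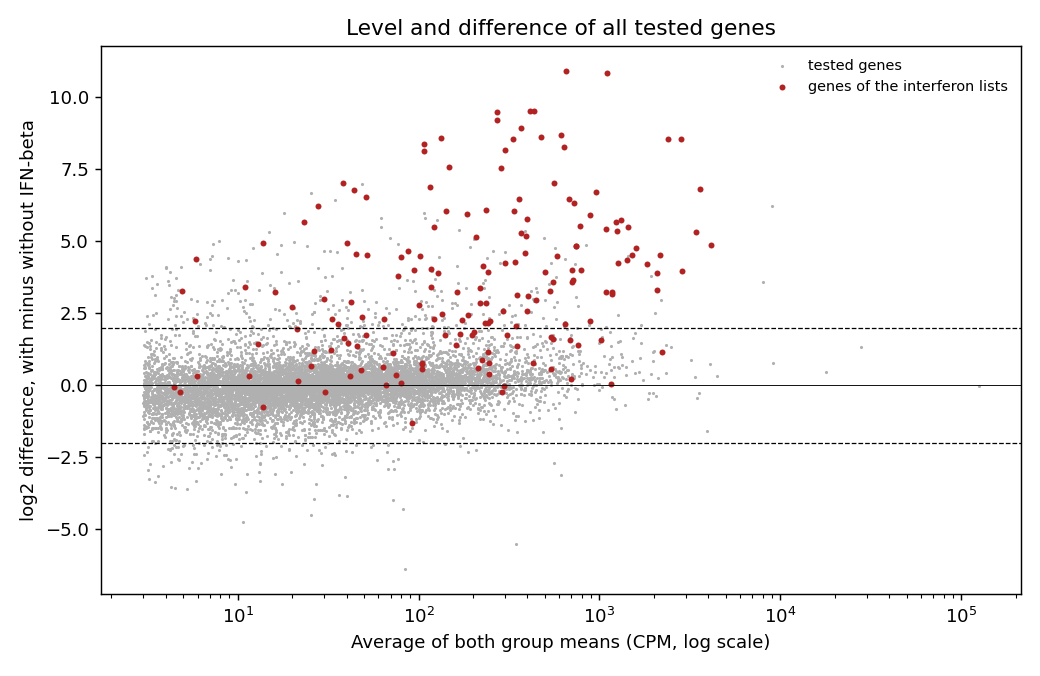
Log2 difference with minus without IFN-beta (vertical axis) against the average of both group means (CPM, log axis) for the 9378 tested genes. Red marks genes of the interferon lists and 3 Ly6 surface genes, which the counts of the interferon lists leave out. Dashed lines mark 4-fold. The 390 genes above the upper line include most of the interferon lists, and fewer genes, 120, lie below the lower line.

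Both receptor chains rose by less than 4-fold. Ifnar1, the chain that carries TYK2, stood at 289, 284, 304 and 284 CPM with IFN-beta and at 145, 166 and 164 CPM without it. These groups did not overlap, and the log2 difference was 0.87 (SE 0.08; limma adjusted p = 1.67e-08). Ifnar2, the chain with the higher affinity for ligand, stood at 87.5, 105, 95.7 and 107 CPM against 38.9, 48.6 and 49.3 CPM, a difference of 1.11 (SE 0.11; limma adjusted p = 5.92e-08). The 16 interferon ligand genes of the list were not in both tables and are not analysed here.

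The receptor kinases Jak1 and Tyk2 moved little, and Stat2 and Irf9 of ISGF3 rose strongly. Of 12 JAK and STAT genes and Irf9, 11 passed, all higher, 3 of them at least 4-fold, with a median difference of 1.29 against 0.02 over all tested genes. Jak1 was the exception, at 1148 to 1207 CPM with IFN-beta and 1104 to 1170 CPM without it (0.05, SE 0.07; limma adjusted p = 0.61). Its sign turned to -0.48 with equal totals and -1.08 after quantile normalization. Tyk2 rose by 0.63 (SE 0.10; limma adjusted p = 2.7e-05), a call lost with equal totals (0.11; adjusted p = 0.383). Stat2 rose from 23.2, 33.4 and 33.7 CPM to 545, 560, 584 and 596 CPM, a difference of 4.24 (SE 0.11). Its groups were far apart. Irf9, the DNA-binding subunit, rose from 56.4, 60.8 and 57.6 CPM to 320, 319, 311 and 321 CPM (2.44, SE 0.08). Stat3 rose by 1.74 (SE 0.09), Stat5a by 1.46 (SE 0.13) and Jak2 by 1.34 (SE 0.07).

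**Figure D3:**
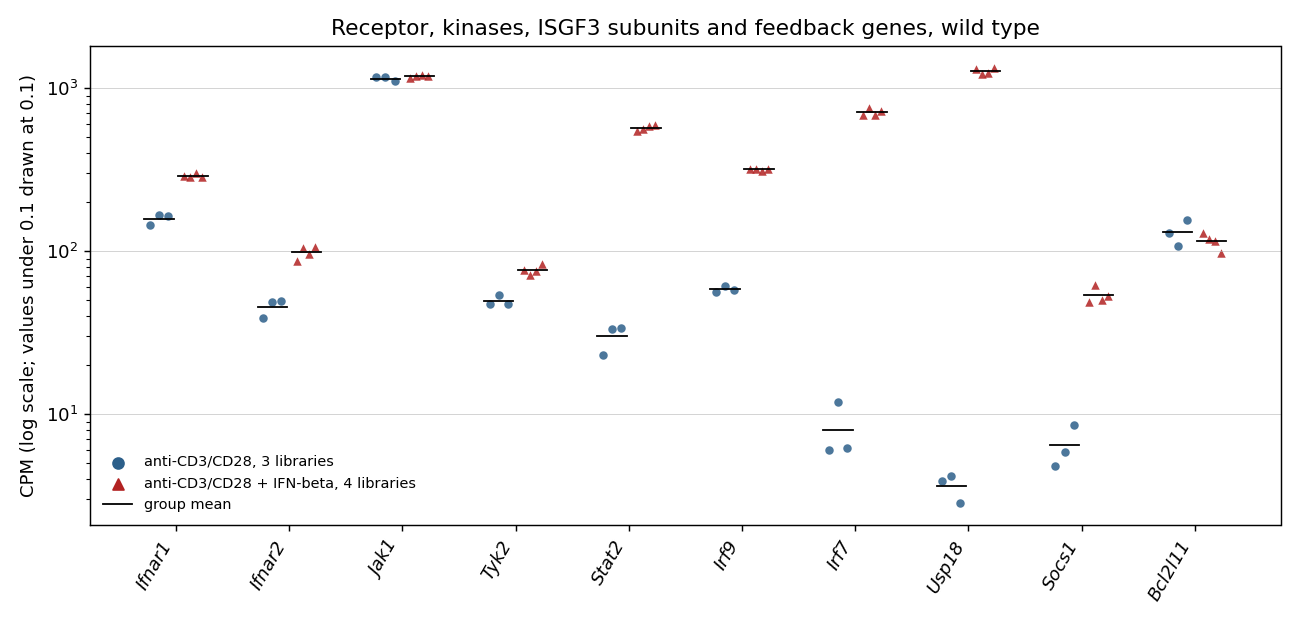
CPM (log axis) in each library for receptor chains, kinases, ISGF3 subunits, feedback genes and Bcl2l11, without (blue circles) and with IFN-beta (red triangles), with group means as bars. The groups are far apart for Usp18 (2.85 to 4.17 against 1221 to 1336 CPM) and overlap for Jak1 and Bcl2l11.

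Among inhibitors of the pathway the induced feedback genes stood out. Of 12 tested, 8 were higher, 1 was lower and 3 did not pass, with a median of 0.65. Over all tested genes 29.0% were higher and 25.0% lower. Usp18, which strips ISG15 from proteins and blocks IFNAR2, stood at 1303, 1221, 1237 and 1336 CPM with IFN-beta and at 3.92, 4.17 and 2.85 CPM without it. Its mean was 349 times higher, or 8.28 on the log2 scale (SE 0.10; limma adjusted p = 3.1e-21). Socs1, an inhibitor of JAK kinases, rose from 4.82, 5.91 and 8.56 CPM to 49.0, 61.7, 50.2 and 53.4 CPM (3.0, SE 0.17). Cish and Socs3, of the same family, rose by 3.25 (SE 0.32) and 2.13 (SE 0.16). The phosphatase gene Ptpn6, which encodes SHP-1, fell by 1.31 (SE 0.15), with 41.2 to 71.8 CPM against 113 to 149 CPM.

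The interferon regulatory factors divided. Of 8 tested, 5 rose, 1 fell and 2 did not pass, with a median of 1.65. The shares over all tested genes were 29.0% higher and 25.0% lower. Irf7, the factor that amplifies interferon production, stood at 688, 755, 684 and 724 CPM with IFN-beta and at 6.03, 11.8 and 6.23 CPM without it. No library came near the other group, and the difference was 6.45 (SE 0.15; limma adjusted p = 1.6e-17). Irf1 rose by 2.06 (SE 0.07) to 537 to 594 CPM and Irf2 by 1.86 (SE 0.09) to 303 to 337 CPM. Irf8 rose by 1.44 (SE 0.22) at a low level, 17.7 to 20.2 CPM. Irf3 (-0.25) and Irf4 (-0.03), which acts downstream of the antigen receptor, did not pass.

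Genes with direct antiviral functions rose almost without exception. Of 40 tested, 39 rose, 37 of them at least 4-fold, with a median difference of 5.39, and Ifi27 (0.32) did not pass. Mx1, a dynamin-like GTPase whose C57BL/6 allele is known to lack coding exons, stood at 2281, 2265, 2136 and 2155 CPM with IFN-beta. Without it the libraries held 0.603, 0.347 and 1.30 CPM, from 8 reads in all. The difference was 10.86 (SE 0.16; limma adjusted p = 1.7e-20), and the ratio of read rates was 2770 with a 95% counting interval of 1410 to 6430. Its neighbour Mx2 stood at 836, 825, 810 and 817 CPM against 0.603, 0.695 and 0.519 CPM (9.54, SE 0.10). Counting intervals cover reads only, which are not independent molecules without molecular identifiers.

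The neighbouring genes Rsad2 and Cmpk2 were also close to 0 without IFN-beta. Rsad2, which encodes viperin, stood at 872, 865, 893 and 854 CPM against 0.603, 0.347 and 1.30 CPM (9.52, SE 0.17). Cmpk2, a mitochondrial nucleotide kinase, stood at 539, 561, 564 and 494 CPM against 0, 0.695 and 0.778 CPM (9.21, SE 0.22). The Ifit genes, whose proteins bind viral RNA, were at 4447 to 5151 CPM for Ifit1 against 9.86 to 16.3 CPM (8.57, SE 0.12). Ifit3 stood at 1303, 1202, 1065 and 1326 CPM against 2.11, 2.08 and 3.37 CPM, and Ifit3b at 598 to 720 CPM against 0.695 to 2.41 CPM. Ifit3 shares 41.1% and Ifit3b 35.7% of their 75-base stretches of sequence with other genes, so reads of the pair may be divided between them. The oligoadenylate synthetase genes Oas2 (8.95, SE 0.24), Oas3 (8.16, SE 0.14), Oasl1 (8.36, SE 0.22) and Oasl2 (8.62, SE 0.20) rose by similar amounts. Oas2 went from 1.81, 1.39 and 0.26 CPM to 729, 753, 725 and 737 CPM.

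**Figure D4:**
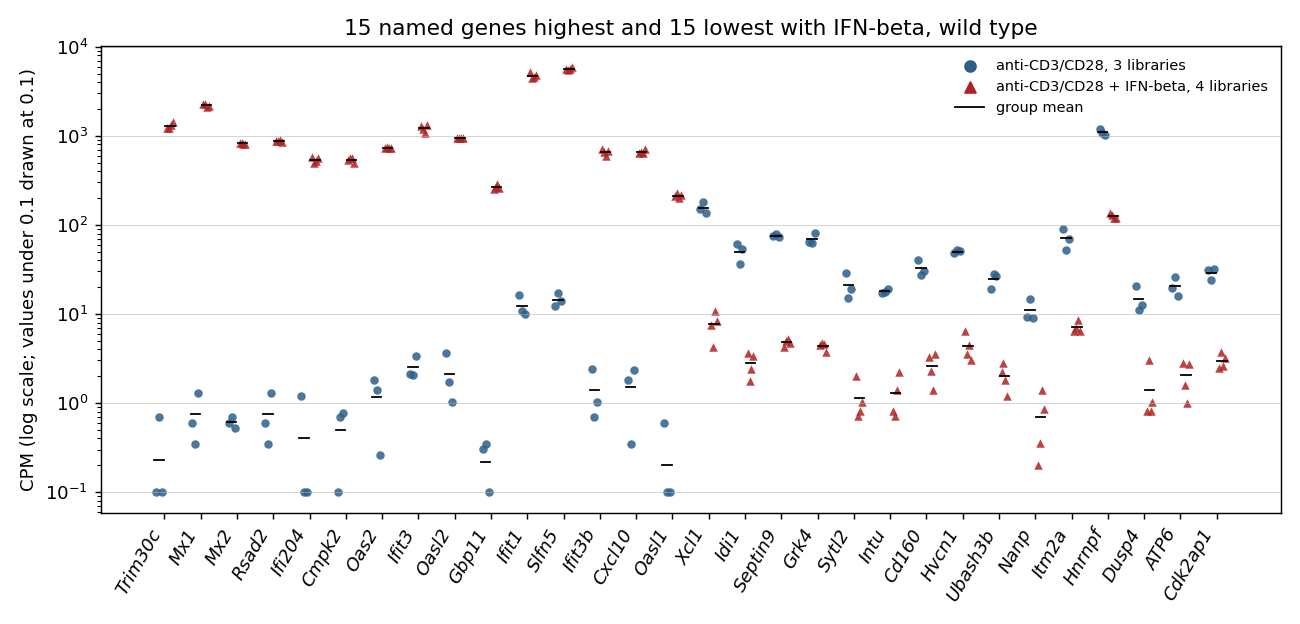
CPM (log axis) in each library for the 15 named genes highest and the 15 lowest with IFN-beta, without (blue circles) and with it (red triangles), with group means as bars. The highest genes lie at 17.0 CPM or less without IFN-beta and at 201 CPM or more with it, whereas the lowest genes except Hnrnpf lie at 10.7 CPM or less with IFN-beta.

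All 6 genes of the ISG15 pathway rose at least 4-fold, with a median of 5.35. Isg15 itself, the ubiquitin-like modifier, was low in these libraries, at 27.7, 27.6, 23.9 and 29.7 CPM with IFN-beta and 0.904, 0 and 0.519 CPM without it (4.95, SE 0.29; limma adjusted p = 3e-11). The enzymes that attach it were all measured: the E1 enzyme Uba7 rose by 4.12 (SE 0.09), the E2 enzyme Ube2l6 by 6.21 (SE 0.25), and the ligases Herc6 by 5.75 (SE 0.11) and Trim25 by 3.13 (SE 0.08). Herc6 held 2547 to 2606 CPM against 35.8 to 55.6 CPM.

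Interferon-inducible GTPases, which act against intracellular pathogens, rose without exception. All 17 tested were at least 4-fold higher, with differences from 3.57 to 8.58 and a median of 4.29. Gbp2 stood at 7142, 7091, 6947 and 7303 CPM with IFN-beta against 76.5, 54.2 and 61.2 CPM without it (6.80, SE 0.09). Gbp11 stood at 253, 266, 290 and 260 CPM, against 2 reads in all without IFN-beta, a read ratio of 1340 (counting interval 371 to 11100). It shares 10.3% of its stretches with other genes. Gbp5 rose by 6.46 (SE 0.10) and Gbp7 by 5.50 (SE 0.07). Gbp10 (7.59, SE 0.29) shares 77.8% of its stretches with other genes of the family, so its value is uncertain.

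Sensors of nucleic acid rose by widely different amounts. Of 15 tested, 13 rose, 7 at least 4-fold, and the median was 1.93. Dhx58 (LGP2) rose from 2.71, 1.74 and 3.37 CPM to 552, 566, 565 and 603 CPM (7.56, SE 0.14), and Ifih1 (MDA5) from 8.14, 10.4 and 6.23 CPM to 1102, 1074, 1178 and 1072 CPM (7.01, SE 0.12). Ddx58 (RIG-I) rose by 4.82 (SE 0.08) and Zbp1, a sensor of Z-form nucleic acid, by 6.70 (SE 0.10). Tlr7, the endosomal receptor for single-stranded RNA, rose from 1.81, 5.91 and 4.67 CPM to 291, 270, 290 and 266 CPM (6.04, SE 0.22). The adaptor Mavs (0.30) did not pass, and Tmem173 (STING) rose by 1.20. All 14 pyrin and HIN genes passed, 13 at least 4-fold. Ifi204 was highest, at 496 to 576 CPM against 1.21, 0 and 0 CPM (9.49, SE 0.28). Ifi204 shares 13.2% of its stretches with other genes.

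Smaller families named for interferon responses rose as well. All 8 Schlafen genes rose, 7 at least 4-fold, with Slfn5 at 5580, 5447, 5606 and 5906 CPM against 12.4, 17.0 and 14 CPM (8.57, SE 0.09). All 13 TRIM genes rose, 11 at least 4-fold. Trim30c, of the Trim30 cluster, had the highest difference of all tested genes, 10.92 (SE 0.21), from 0, 0.695 and 0 CPM, 2 reads, to 1217, 1228, 1319 and 1437 CPM. Its read ratio was 6550 (counting interval 1810 to 54100). No value of shared stretches was available for Trim30c or Mx1. Of 7 PARP and DTX genes, 6 rose at least 4-fold and Parp8 (0.00) did not pass. Parp14, an ADP-ribosyltransferase, stood at 6399 to 7026 CPM against 148 to 180 CPM (5.33, SE 0.08).

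Antigen presentation by MHC class I rose broadly but by smaller amounts. Of 25 genes tested, 24 were higher and 14 at least 4-fold higher, and the median was 2.23. Canx, the chaperone calnexin, was lower by 0.24 with overlapping groups, a call lost without replicate 1 or 3 of the libraries without IFN-beta (-0.16 and -0.23) and without replicate 3 or 4 of those with it (-0.24 and -0.20). With equal totals 23 were higher and 2 lower, and after quantile normalization 21 and 2. Nlrc5, the transactivator of these genes, stood at 1955, 2011, 2032 and 1845 CPM against 176, 195 and 252 CPM (3.25, SE 0.10). Tapbp, the peptide-loading factor tapasin, rose by 3.57 (SE 0.08), the immunoproteasome subunit Psmb10 by 2.90 (SE 0.13) and the nonclassical H2-T23 by 2.84 (SE 0.10). Exons on the other strand overlap 24.9% of Tapbp exon bases. The transporter subunits Tap1 and Tap2 rose by 2.57 and 2.27, the classical heavy chain genes H2-K1 and H2-D1 by 1.40 and 1.58, and B2m, the light chain, by 1.15. Over the 170 tested genes of all interferon lists, 157 were higher, 3 lower and 120 at least 4-fold higher, with a median of 3.39, and these genes were chosen as known targets, so their direction is no independent support.

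**Figure D5:**
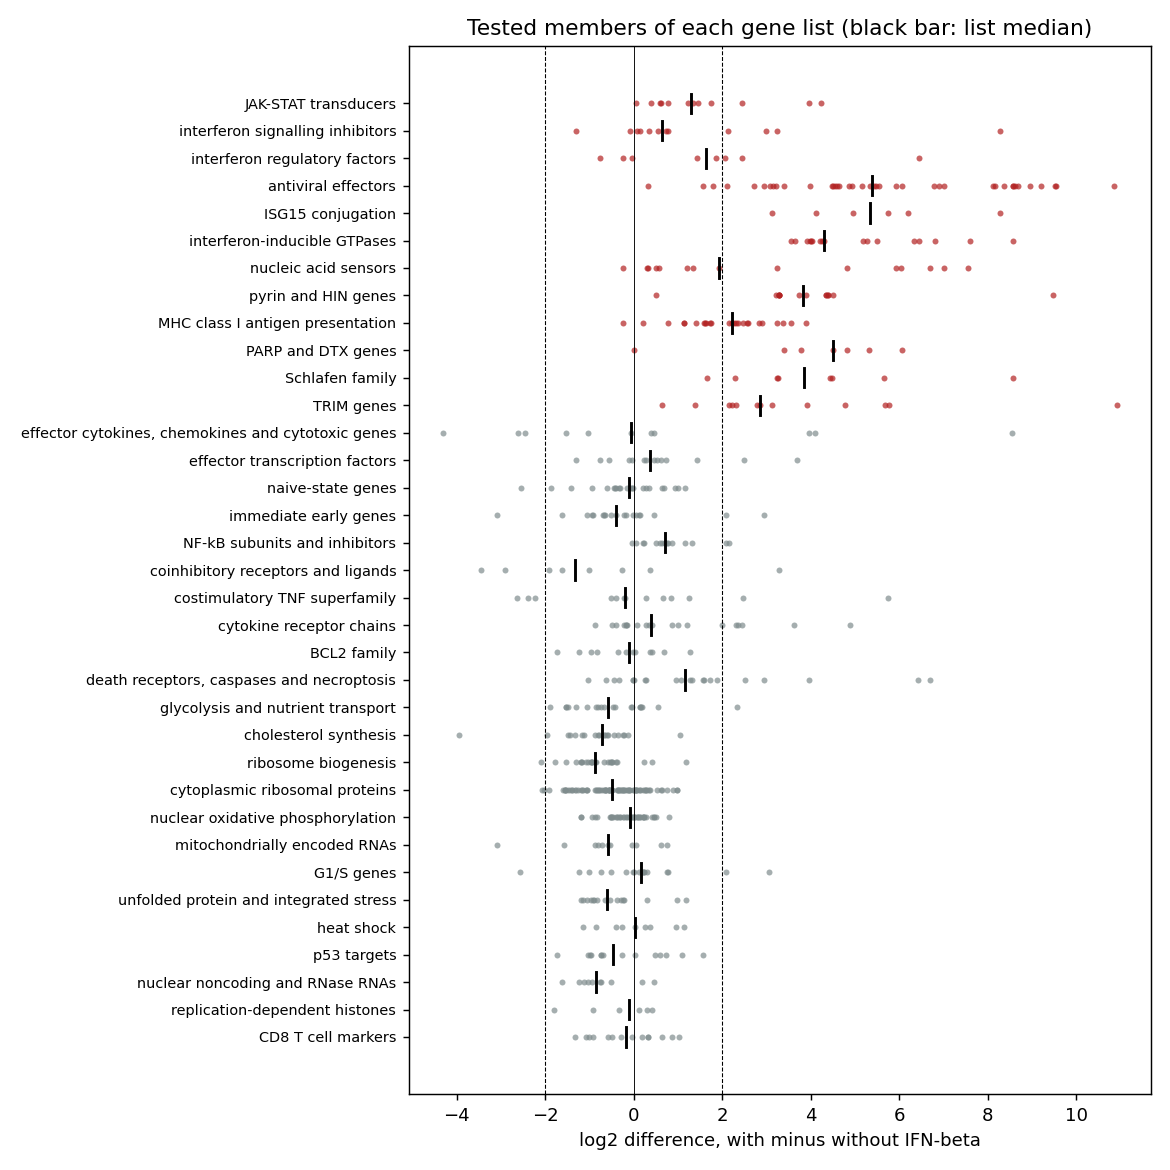
Log2 difference with minus without IFN-beta (horizontal axis) of every tested member of the lists with at least 5 tested members; red marks interferon lists, black bars list medians and dashed lines 4-fold. The medians of antiviral effectors (5.39) and GTPases (4.29) lie past 4-fold, and those of ribosome biogenesis (-0.88) and cholesterol synthesis (-0.73) lie below 0.

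Effector genes of CD8 T cells moved in both directions. Of 25 listed, 8 were not in both tables and 6 were too low to test. Of 11 tested, 4 rose, 5 fell and 2 did not pass, where 29.0% of all tested genes rose and 25.0% fell. Their median was -0.06, with -0.55 for equal totals and 0.11 after quantile normalization. Cxcl10, a chemokine that attracts CXCR3-bearing cells, rose from 1.81, 0.347 and 2.33 CPM to 649, 666, 637 and 715 CPM (8.56, SE 0.25). Tnfsf10, which encodes the death ligand TRAIL, rose from 12.1, 16.3 and 13.8 CPM to 208, 234, 235 and 219 CPM (3.96, SE 0.11). Gzmb, the protease granzyme B, was at 7.32, 7.43, 10.1 and 13.6 CPM against 0, 0 and 0.26 CPM, the last from 1 read (4.09, SE 0.34), and the read ratio was 97.5 (counting interval 17.3 to 3870). The chemokines with known induction by antigen receptor signals went the other way. Xcl1, which attracts XCR1-bearing dendritic cells, had the lowest difference among the 15 lowest genes with no model name, at 7.53, 4.24, 10.7 and 8.31 CPM with IFN-beta against 152, 179 and 137 CPM without it. Its level with IFN-beta was 4.92% of that without it (-4.31, SE 0.21; limma adjusted p = 9.8e-13). Exons on the other strand overlap 18.7% of Xcl1 exon bases. Ccl3 (-2.61, SE 0.33), Ccl4 (-2.44, SE 0.26), Prf1 (-1.54, SE 0.20), which encodes perforin, and Tnf (-1.02) also fell.

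The transcription factors and receptors of effector differentiation showed large rises in a few members. Eomes rose from 17.5, 13.6 and 21.8 CPM to 208, 234, 239 and 232 CPM (3.68, SE 0.12), and Tbx21, which encodes T-bet, from 2.11, 3.13 and 3.89 CPM to 21.6, 17.9, 17.1 and 19.9 CPM (2.49, SE 0.21). Zeb2 (-1.29, SE 0.29) and Runx1 (-0.77, SE 0.21) fell. Of the 14 factors tested, 5 rose, 2 fell and 7 did not pass, where 29.0% of all tested genes rose and 25.0% fell. Equal totals gave 3 higher and 5 lower. Among 20 cytokine receptor chains, 12 rose, 3 fell and 5 did not pass, against 29.0% and 25.0% over all tested genes. Their median of 0.39 turned to -0.14 with equal totals. With equal totals 9 were higher and 9 lower, and after quantile normalization 8 and 8. Il12rb2 and Il12rb1, the IL-12 receptor chains, rose by 4.90 (SE 0.28) and 3.62 (SE 0.22). Il12rb2 stood at 130, 151, 167 and 145 CPM against 6.33, 1.74 and 7.53 CPM, and 40.0% of its exon bases overlap exons on the other strand. Il18rap rose by 2.46 (SE 0.18), Il15ra by 2.36 (SE 0.25), and Il27ra fell by 0.88 (SE 0.11).

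Surface receptors and ligands that tune T cell activation included both rises and falls. Cd274, which encodes PD-L1, rose from 92.2, 60.1 and 85.9 CPM to 727, 761, 797 and 760 CPM (3.28, SE 0.11), and the costimulatory ligand Cd86 from 3.92, 5.21 and 3.37 CPM to 286, 238, 232 and 231 CPM (5.74, SE 0.13). Of 8 coinhibitory genes, 2 rose and 5 fell, where 29.0% of all tested genes rose and 25.0% fell. Their median was -1.31. Cd5, a brake on antigen receptor signals, fell from 135, 96.3 and 128 CPM to 22.4, 14.2, 15.7 and 10.9 CPM (-2.92, SE 0.18), and Cd160 from 40.1, 27.1 and 30.6 CPM to 3.25, 2.30, 1.41 and 3.56 CPM (-3.44, SE 0.26). Tigit fell by 1.91 (SE 0.31). In the costimulatory list, 5 rose and 5 fell of 13, against 29.0% and 25.0% over all tested genes. Tnfrsf9, which encodes 4-1BB, stood at 18.1, 19.8, 19.7 and 20.5 CPM with IFN-beta against 137, 110 and 126 CPM (-2.63, SE 0.11), while Tnfsf8 rose by 2.48 (SE 0.10).

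Early activation genes were not uniformly lower or higher. Of 19 immediate early genes tested, 3 rose, 9 fell and 7 did not pass, where 29.0% of all tested genes rose and 25.0% fell. Their median was -0.40. It ranged from -0.56, without replicate 2 of the libraries without IFN-beta, to -0.24, without replicate 4 of those with it. With equal totals 2 were higher and 13 lower, with a median of -0.92. Jun rose from 41.3, 19.8 and 34.5 CPM to 216, 253, 252 and 235 CPM (2.95, SE 0.16), and Cd69, which type I interferon is known to induce, from 167, 144 and 131 CPM to 722, 572, 550 and 662 CPM (2.08, SE 0.10). Nr4a2, an orphan nuclear receptor induced by antigen, fell from 129, 134 and 140 CPM to 42.7, 46.5, 45.6 and 40.2 CPM (-1.61, SE 0.09). Dusp4, a phosphatase of MAP kinases, fell by 3.09 (SE 0.35), Dusp2 by 1.05 (SE 0.14) and Egr1 by 0.94 (SE 0.13). Of 16 NF-kB genes, 14 rose, though with equal totals 7 were higher and 4 lower. Bcl3 (2.15, SE 0.20) and Nfkbie (2.08, SE 0.11) passed 4-fold.

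Genes of the naive state changed in both directions. Of 22 tested, 8 rose, 10 fell and 4 did not pass, with a median of -0.10. Among all tested genes 29.0% rose and 25.0% fell. With equal totals 3 were higher and 16 lower, and after quantile normalization 2 were higher and 18 lower, with a median of -0.64. S1pr1, the receptor for lymph exit, fell by 0.95 (SE 0.08), and Id3, an inhibitor of E proteins, by 2.55 (SE 0.34), from 6.60 to 10.6 CPM to 0.603 to 1.53 CPM. The CD8 coreceptor genes Cd8a and Cd8b1 rose by 0.64 (SE 0.08) and 0.88 (SE 0.09), although Cd8a did not pass with equal totals (0.12; adjusted p = 0.228), and Lat, the adaptor of the antigen receptor, fell by 1.32 (SE 0.13).

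Among death receptor, caspase and necroptosis genes most changes were rises, but not in the BCL2 family. Of 22 of the former tested, 13 rose, 5 at least 4-fold, 1 fell and 8 did not pass, with a median of 1.17. With equal totals 13 were higher and 5 lower. Mlkl, the executor of necroptosis, stood at 74.2, 67.5, 67.5 and 64.3 CPM against 0.301, 0 and 0.778 CPM (6.43, SE 0.25), and Casp8 at 883, 876, 892 and 896 CPM against 112, 110 and 121 CPM (2.95, SE 0.07). Fas rose by 1.56 (SE 0.13), and Ripk3 (0.00), which activates MLKL, did not pass. In the BCL2 family 3 of 12 rose, 4 fell and 5 did not pass, near the shares over all tested genes, 29.0% and 25.0%. With equal totals 1 was higher and 8 lower. Mcl1, a pro-survival gene, rose from 340, 280 and 281 CPM to 722, 741, 714 and 706 CPM (1.27, SE 0.08), and the pro-apoptotic Bbc3 (PUMA) fell by 1.74 (SE 0.24). Bcl2l11, which encodes BIM and is the neighbour of Morrbid, was at 128, 119, 115 and 97.4 CPM against 130, 107 and 156 CPM. These overlapped, and the difference of -0.18 (SE 0.12) did not pass (limma adjusted p = 0.2). It did pass without replicate 2 of the libraries without IFN-beta (-0.32, limma adjusted p = 0.0269). It also passed with equal totals (-0.70, limma adjusted p = 2.66e-05) and after quantile normalization (-0.51, limma adjusted p = 0.00261). Morrbid was not analysed here.

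Growth and biosynthesis genes were mostly lower. Of 27 ribosome biogenesis genes, 24 fell and 2 rose, with a median of -0.88. Fbl, the methyltransferase fibrillarin, fell from 39.2, 34.1 and 37.6 CPM to 9.36, 7.07, 6.43 and 10.9 CPM (-2.09, SE 0.18), and Nhp2 by 1.77 (SE 0.20), whereas Tcof1 rose by 1.19 (SE 0.08). Of 79 ribosomal protein genes, 44 fell, 10 rose and 25 did not pass, with a median of -0.48. Their summed levels overlapped, at 29060 to 37440 CPM with IFN-beta and 27950 to 41010 CPM without it. With equal totals 67 were lower and 4 higher, and after quantile normalization 70 and 0, with a median of -1.04. Rpl27a (-2.06, SE 0.15) shares 14.8% of its stretches with other genes, and Rplp1 (0.99, SE 0.12), which reversed to -0.13 after quantile normalization, shares 45.9%. Of 20 cholesterol synthesis genes, 16 fell and 1 rose, with a median of -0.73. Idi1, the isomerase of isopentenyl diphosphate, stood at 3.66, 1.77, 2.41 and 3.39 CPM against 60.9, 36.5 and 53.2 CPM (-3.95, SE 0.24), and shares 16.7% of its stretches. Cyp51 fell by 1.43 (SE 0.14), and Ebp rose by 1.05 (SE 0.13).

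Metabolic and cell cycle genes included opposite changes within a family. Among 20 glycolysis and transport genes, 12 fell and 2 rose, against 25.0% and 29.0% of all tested genes, with a median of -0.57. Hk1 rose from 42.5, 52.1 and 41.3 CPM to 199, 232, 244 and 251 CPM (2.34, SE 0.10), and its paralog Hk2 fell from 16.9, 14.9 and 17.6 CPM to 3.86, 5.48, 5.63 and 7.12 CPM (-1.52, SE 0.21). The amino acid transporter gene Slc7a5 fell by 1.49 (SE 0.14). Of 18 G1/S genes, 4 rose, 5 fell and 9 did not pass, and with equal totals 2 were higher and 12 lower. Over all tested genes 29.0% rose and 25.0% fell, so the first counts are close to that background. Ccnd2, cyclin D2, rose from 169, 141 and 168 CPM to 1266, 1333, 1428 and 1255 CPM (3.05, SE 0.08), while Cdk4 fell by 1.24 (SE 0.21) and Tyms by 2.57 (SE 0.31). Of 43 nuclear oxidative phosphorylation genes, 30 did not pass, and the 5 that rose and 8 that fell were smaller shares than over all tested genes. With equal totals 31 were lower and 0 higher.

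Several of the lowest named genes shared sequence with other genes. Itm2a, a membrane protein gene of T cells, fell from 91.0, 52.5 and 70.1 CPM to 6.51, 6.90, 8.64 and 6.45 CPM (-3.21, SE 0.18). Ubash3b, a phosphatase that dampens antigen receptor signals, fell from 19.0, 27.8 and 26.7 CPM to 1.19 to 2.83 CPM (-3.34, SE 0.26). Septin9, a cytoskeletal GTPase, fell from 75.6, 78.5 and 73.4 CPM to 4.27 to 5.23 CPM (-3.85, SE 0.15). Grk4 (-3.81), Sytl2 (-3.73), Intu (-3.45) and Hvcn1 (-3.42), a proton channel gene, completed the lowest genes that share under 2% of stretches, though 44.2% of Hvcn1 exon bases overlap exons on the other strand. Nanp (-3.33), Hnrnpf (-3.11), Cdk2ap1 (-3.08) and the mitochondrial ATP6 (-3.09) share 49.1%, 34.2%, 52.6% and 99.5% of their stretches. At least 10% of stretches were shared by 26.9% of the genes at least 4-fold lower, 11.6% of those at least 4-fold higher and 7.53% of all tested genes; the part of shared reads in the lower calls was not tested. The median of the levels averaged over both groups was 11.2 CPM for the genes at least 4-fold lower and 95.5 CPM for those at least 4-fold higher.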

How the data were processed

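Total RNA (100 ng) of each library went into stranded libraries of total RNA, read as pairs of 75 bases, per the labels' protocols. The deposited values are counts normalized by the authors with DESeq2, per the labels, a signal in which each library's read counts per gene are divided by 1 size factor, within each table separately. Trimmomatic, STAR 2.5, featureCounts and DESeq2, with the builds GRCm38 and mm10, are listed in the submitters' processing notes. The annotation release, strand setting and row filter were not given in the sources used here. Without a stated strand setting, a gene and its antisense partner may not be told apart.

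Every value of these libraries was a whole multiple of its library's step within 0.01 read (100.0% whole), and these reads were recovered. Tables were joined by Entrez ID, giving 12539 genes, 127 of them without a symbol. Of 15036 IDs, 14359 matched RefSeq GRCm38.p6, which also named Septin9 in place of a date-like entry. Libraries were scaled by TMM (edgeR 4.0.16). Log2(CPM + 0.5) was tested with limma 3.58.1 (trend, R 4.3.3) in genes whose group means averaged at least 3 CPM, with Benjamini-Hochberg adjustment at 0.05 and no covariate. Log2 differences are on this scale, which understates changes of low genes. On the recovered reads, edgeR's quasi-likelihood test called 2680 genes higher and 2366 lower. Replicate libraries of a group differed beyond sampling noise (chi-square per degree of freedom 2.91 to 9.07), so none were merged. The limma test was checked on simulated data in which few genes changed and as many rose as fell. Most genes differed in these libraries, so that check says nothing about the scaling or the balance of higher and lower genes.

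The members and lists were chosen with earlier results of these data known. Named genes were the 15 highest and 15 lowest with a symbol that is no model name, no overlap and at least 10 CPM in the higher group, up to 6 per direction in each interferon list and 4 in each other list, and the pathway's core genes. Of these, 6 are not reported here. Further list members were named after their values were seen. Alternatives changed the scaling, the filter, the pseudocount, the test, the replicates and the genes kept, and all 14 libraries were also fitted together. With 2360619 to 6918633 reads per library, intervals cover counting error only.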

Additional observations from a re-analysis of the deposited data

Results flagged for a closer look

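Among the 232 named genes, 9 (3.88%) had 1 library of the 4 with IFN-beta that stood apart from the other 3, its gap to the nearest exceeding Dixon's 95% critical share of the group's range. Chance sets apart a library in about 1 in 20 groups of 4, so the count is no more than that. Replicate 1 was high for Cd86, the costimulatory ligand (286 CPM against 231 to 239 CPM in the others), and for Cdk4, the G1 kinase (16.3 against 8.13 to 8.84 CPM). Replicate 2 was high for the phosphatase gene Dusp4 (3.01 against 0.804 to 1.02 CPM) and for the NF-kB inhibitor gene Nfkbie (107 against 92.8 to 94.4 CPM). Replicate 3 was high for the glycolytic Pgam1, at 20.7 CPM against 14.8 to 15.8 CPM. Replicate 4 was high for Rnr1, the mitochondrial 12S ribosomal RNA (3010 against 1650 to 1790 CPM), for the nuclear noncoding Malat1 (22400 against 20100 to 20200 CPM) and for the heat shock factor gene Hsf1 (20.0 against 16.1 CPM). It was low for Shmt2, of mitochondrial one-carbon metabolism, at 28.5 CPM against 37.8 to 39.6 CPM.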

How the results depend on the processing

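The higher counts depended most on the scaling. With equal totals, 1085 genes were higher and 5688 lower (285 at least 4-fold), against 2723, 2345 and 120. At least 4-fold lower were 65 genes with a pseudocount of 2 and 63 with a mean of at least 10 CPM. Among genes sharing no 75-base stretch (6054 tested), 1410 were lower, with 217 higher and 59 lower at least 4-fold. Among those with no exon overlap on the other strand (5997 tested), 1779 were higher, 1509 lower and 253 at least 4-fold higher. The latter pair was chosen after seeing the data, and both tested fewer genes. Leaving out each library gave 2475 to 2606 higher and 2110 to 2278 lower genes, with 381 to 392 and 116 to 125 at least 4-fold. Equal totals reversed 13 of the 232 named genes: Ltb (-0.12), Junb (-0.054), Btla (-0.16), Bcl2l13 (-0.11), Wdr43 (-0.11), Ndufa8 (-0.033), Uqcrc1 (-0.070), Dnaja1 (-0.16), Hspa8 (-0.27), Malat1 (-0.068), Cd247 (-0.20), Ikzf4 (-0.093) and Jak1 (-0.48). Quantile normalization reversed 8: Wdr43 (-0.083), Rpl13a (-0.20), Rplp1 (-0.13), COX1 (-0.58), Hspa8 (-0.94), Malat1 (-0.25), Cd247 (-0.26) and Jak1 (-1.08). For the scalings and the pseudocount the cause was not tested. Whether the replicate numbers pair the libraries was not settled: same-numbered libraries correlated at 0.05, 0.04 and 0.04 in their deviations, under 0.1. Libraries whose number occurs in both groups correlated best with their own number, with 1 exception. Replicate 1 without IFN-beta correlated best with replicate 4 with it (0.075). Pairs of unlike number ran from -0.087 to 0.075. With the replicate number as a block, 2650 genes were higher and 2303 lower (389 and 119 at least 4-fold), and 231 of 232 named genes kept their call. Both groups lie in separate tables, so no setting removes a difference between tables. Genes near 3 CPM rest on few reads in the libraries without IFN-beta, where 3 reads over the group are 0.299 CPM.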

Other observations

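Several genes at least 32-fold higher with IFN-beta belonged to none of the interferon lists, and they are named here after their values were seen. Rnf213, which encodes a large ubiquitin ligase, stood at 16960, 18510, 19090 and 16100 CPM with IFN-beta against 208, 259 and 237 CPM without it (6.24, SE 0.09). It was the highest of these genes in level, and 8.74% of its exon bases overlap exons on the other strand. Tdrd7, a Tudor domain gene, stood at 208, 208, 230 and 202 CPM against 2.41, 3.82 and 2.60 CPM (5.97, SE 0.14). Ccrl2, a chemoattractant receptor gene, stood at 46.9 to 52.9 CPM with IFN-beta and had 0 reads without it, where 3 reads over the group would be 0.299 CPM. Fap, a cell-surface protease gene, stood at 31.6 to 38.2 CPM against 1 read in all.

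Among genes lower with IFN-beta outside the lists, likewise named after their values were seen, the noncoding 6820431F20Rik stood at 13.1 to 15.9 CPM against 660 to 685 CPM (-5.51, SE 0.10) and A130077B15Rik at 1.02 to 2.24 CPM against 154 to 178 CPM (-6.40, SE 0.21). Rgs16, a regulator of G protein signalling, fell from a mean of 51.2 ± 1.08 CPM (SD, n = 3) to 6.11 to 8.64 CPM (-2.79, SE 0.16), and Spry1, an inhibitor of receptor tyrosine kinase signals, from 47.9, 34.8 and 40.0 CPM to 4.68 to 7.63 CPM (-2.76, SE 0.19). Exons on the other strand overlap 10.1% of Rgs16 and 24.4% of Spry1 exon bases.

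The tables did not list the same genes. Only the table with IFN-beta listed 304 genes, of which 23 had a mean over 3 CPM. Tlr3, the endosomal receptor for double-stranded RNA, was one of these, at 15.6 CPM (13.0 to 18.6). Only the table without IFN-beta listed 2193 genes, of which 65 had a mean over 3 CPM. They included Gm17821 (180 CPM, 152 to 206), the scavenger receptor gene Colec12 (138 CPM, 124 to 157), Zfp488 (82.3 CPM) and the vomeronasal receptor gene Vmn1r58 (76.6 CPM). No comparison was made for genes listed in a single table. Whether the tables were counted with the same annotation was not tested.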
